A study of Mus musculus with 2 samples.

Results

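The genes described here encode mouse histone methyltransferases and histone demethylases. They were chosen by name as the protein-coding genes whose symbol begins with Kmt, Kdm, Setd, Nsd, Suv39h, Ehmt, Dot1l, Prmt or Carm1 in the GENCODE M21 annotation, which gave 51 of 21559 protein-coding genes and of 43346 annotated genes in the files. There were 24 lysine methyltransferases or SET domain proteins, 9 arginine methyltransferases and 18 demethylases or related JmjC proteins. After Setd the pattern took a digit or a capital A or B, and so left out Setdb1 and Setdb2, whose values are given beside those of the other H3K9 methyltransferases. RNA came from granulocyte-monocyte progenitors (GMP), bone marrow precursors of neutrophils and monocytes, taken from male C57BL/6J mice of 5 to 6 weeks. No allele and no treatment is named in the labels, and there was 1 group of 2 biological replicates, so no condition was compared and no p-value was computed. Both replicates carry the same donor record and different biosample records. The sources used here do not say how many animals stand behind each, and the spread between them may be partly technical.

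Histone lysine methyltransferases transfer methyl groups from S-adenosylmethionine to lysines of histones, most through a SET domain and Dot1l through another fold. Demethylases remove them, either with a flavin cofactor, as Kdm1a and Kdm1b do, or through an iron- and oxoglutarate-dependent JmjC domain. Methylation of H3K4 and H3K36 is known for active promoters and transcribed gene bodies, methylation of H3K9 and H3K27 for silenced chromatin, and several of these enzymes, among them Kmt2a, Dot1l and Kdm1a, are studied in blood formation and leukaemia.

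Input to each library was 100 ng of RNA after removal of ribosomal RNA. The files held 49473848 estimated counts in replicate 1 and 44260902 in replicate 2. Nuclear protein-coding genes took 83.9% and 86.9% of the counts but 19.1% and 22.9% of the TPM (a level per length, scaled to the same total over all genes in each library), and the rest of the TPM lay in other genes. The TPM printed below are as deposited, so values of protein-coding genes are small. The mean fragment was 178 nucleotides in replicate 1 and 214 in replicate 2, and the labelled size range was 200 to 712 and 200 to 1000. All 8 markers of GMP (Kit, Cd34, Fcgr3, Fcgr2b, Mpo, Elane, Ctsg and Prtn3) were at 10 TPM or more in both libraries, with a summed level of 4901 and 4573 TPM. Of the markers of other cells, none of 5 for B cells, none of 4 for T cells, none of 4 for erythroid cells and none of 4 for stem cells reached 1 TPM in both libraries. Among the B cell markers 4 were at 0 counts in both libraries, and among the T cell markers 3. Mature neutrophil markers summed to 12.2 and 16.5 TPM with 3 of 4 at 1 TPM or more, megakaryocyte markers to 3.4 and 4.31 TPM with 1 of 4, and markers of stroma and endothelium to 9.88 and 11.7 TPM with 1 of 4. The part of those cells in the levels below was not tested. In RNA from many cells, fewer cells of a type and less RNA per cell cannot be told apart.

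Of the 51 genes, 45 (88.2%) were at 1 TPM or more in both libraries, against a background of 40.7% of all protein-coding genes. At 10 TPM or more in both there were 17 (33.3%), against a background of 14.3%. The other 6 were under 1 TPM in at least 1 library, and only Prmt8 had no count in either. Levels in the 2 libraries ran close together over the 51 genes, with Pearson's r of 0.97 for log2(TPM + 1) and Spearman's rho of 0.97 across genes, which are not independent replicates. Of the 10 highest genes in each library 8 were shared. In the order of mean TPM, 45 of 50 neighbouring pairs differed by less than the larger of their standard deviations. The 5 neighbouring pairs set apart were Ehmt2 above Ehmt1, Kmt5b above Nsd3, Kdm7a above Kmt2a, Setd4 above Kdm6b, and Setd1b above Prmt2.

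**Figure D1:**
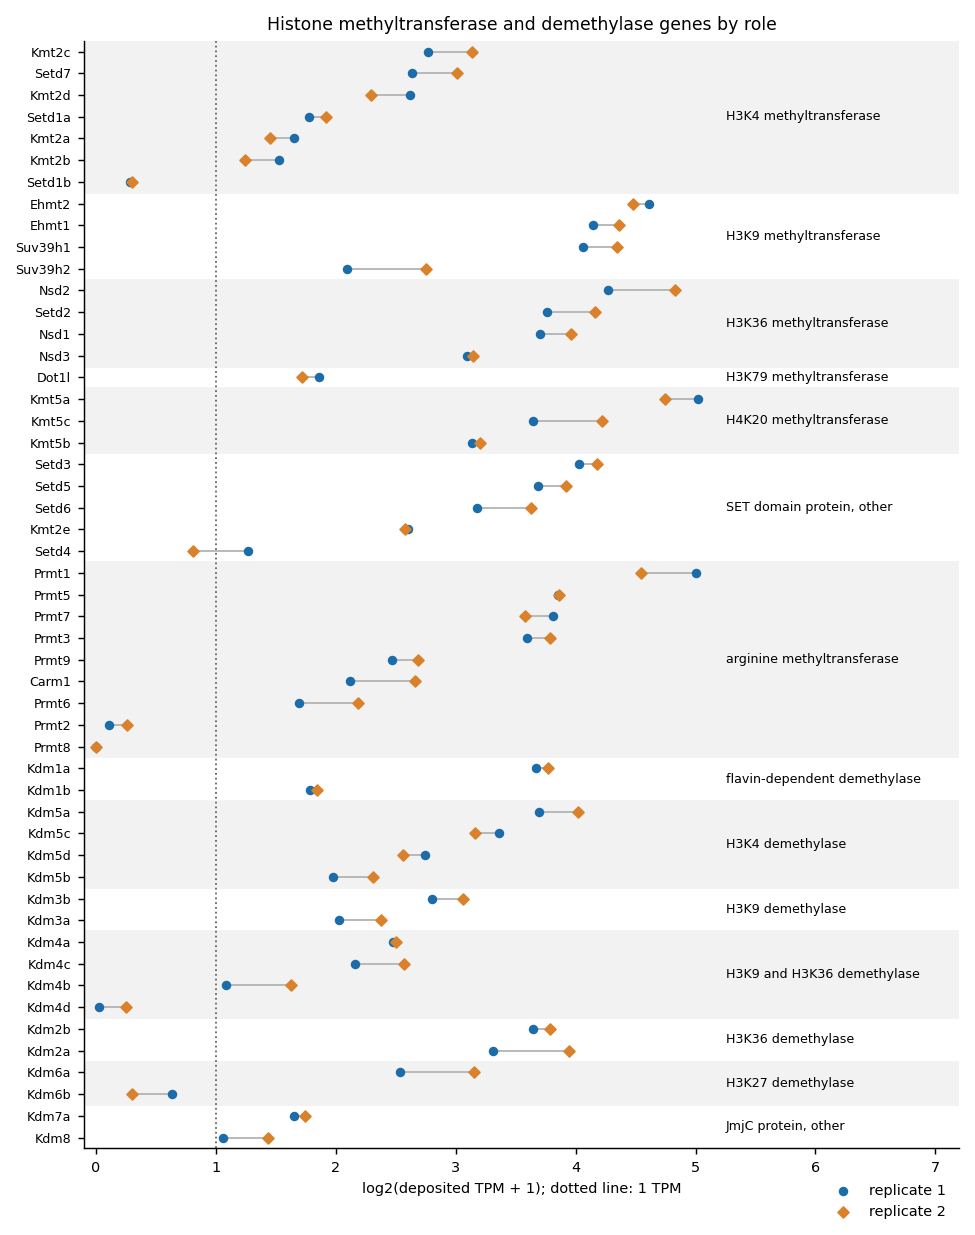
The level of each gene as log2(TPM + 1) on the horizontal axis, with circles for replicate 1 and diamonds for replicate 2, grouped by role and ordered by mean TPM within a group. Of the 51 genes 45 lie to the right of the dotted line at 1 TPM in both libraries, and Prmt8 lies at 0 in both.

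The methyltransferases of H3K4 were low as a group, with a median of 2.43 TPM in replicate 1 and 2.78 TPM in replicate 2 over 7 genes. Kmt2c, which with Kmt2d places H3K4 monomethylation at enhancers, was the highest by gene TPM at 5.82 and 7.80. Setd7, a monomethylase of H3K4 and of other proteins, had 5.22 and 7.04 TPM. Kmt2d had 5.14 and 3.90 TPM, so its order with Kmt2c was the same in both libraries while the distance was not. Setd1a, the catalytic subunit of a complex that trimethylates H3K4 at promoters, had 2.43 and 2.78 TPM, and Kmt2a and Kmt2b, the menin-binding pair, had 2.14 and 1.74 TPM and 1.88 and 1.37 TPM. Setd1b, the paralogue of Setd1a, was the lowest at 0.22 and 0.23 TPM, from 196 and 160 counts. The log2 ratio of Setd1a to Setd1b was 3.53 ± 0.09 (SD, n = 2), and Setd1a was the higher in both libraries. In transcripts with a long complete coding sequence, as defined below, Setd7 was the highest of the 7 genes at 4.6 and 5.54 TPM. Setd1a followed at 2.43 and 2.59 TPM, and then Kmt2c at 2.2 and 2.51 TPM. Transcripts with an incomplete coding sequence held 44.3% and 49.2% of the TPM of Kmt2c. By gene TPM, the subunits of H3K4 methyltransferase complexes had a higher median than the methyltransferases. All 12 listed subunits of H3K4 methyltransferase complexes were at 1 TPM or more in both libraries, with a median of 11.96 and 12.73 TPM, from Dpy30, first by the mean, at 38.3 and 32.9 TPM to Pagr1a at 1.43 and 1.86 TPM. In replicate 2 Psip1 was above Dpy30, at 38.02 TPM.

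The H3K9 methyltransferases included 3 of the 10 highest genes of the set. Ehmt2 (G9a) had 23.5 and 21.3 TPM and Ehmt1 (GLP), its partner in H3K9 mono- and dimethylation, 16.7 and 19.6 TPM. Suv39h1, which trimethylates H3K9 in pericentric heterochromatin, had 15.7 and 19.4 TPM, and its paralogue Suv39h2 had 3.26 and 5.75 TPM. The log2 ratio of Suv39h1 to Suv39h2 was 2.01 ± 0.36 (SD, n = 2) by gene TPM and 4.28 ± 0.52 (SD, n = 2) over transcripts with a long complete coding sequence, and an incomplete transcript led Suv39h2. Setdb1 and Setdb2, outside the name pattern, had 5.69 and 7.72 TPM and 5.23 and 6.80 TPM. The 7 listed partners of H3K9 methylation were at 1 TPM or more in both libraries, from the heterochromatin protein gene Cbx3 at 73.4 and 115 TPM to the Ehmt partner gene Wiz at 1.10 and 1.10 TPM.

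Among the methyltransferases of H3K36, Nsd2 was the highest by gene TPM at 18.3 and 27.5, followed by Setd2 at 12.6 and 16.9 TPM, Nsd1 at 12.1 and 14.6 TPM and Nsd3 at 7.56 and 7.84 TPM. Over transcripts with a long complete coding sequence (at least 90% of the gene's longest) the order was another, with Nsd2 at 11.5 and 11.3 TPM, below Setd2 and Nsd1, whose TPM lay wholly in such transcripts, and Nsd3 at 0.68 and 1.01 TPM. The Nsd enzymes dimethylate H3K36, and Setd2, which travels with elongating RNA polymerase II, trimethylates it. Kmt5a, the enzyme of H4K20 monomethylation and the highest of all 51 genes by mean TPM, had 31.5 and 25.8 TPM. In replicate 2 Nsd2 was above Kmt5a. A processed transcript without a coding sequence, Kmt5a-210, held 52.5% and 27.4% of the TPM of Kmt5a. Over transcripts with a long complete coding sequence Kmt5a had 14.8 and 17.6 TPM. Kmt5c and Kmt5b, which add further methyl groups to H4K20, had 11.5 and 17.7 TPM and 7.79 and 8.19 TPM. The log2 ratio of Kmt5b to Kmt5c was −0.56 and −1.11 by gene TPM and 0.54 and 0.05 over transcripts with a long complete coding sequence, so their order turned. Dot1l, the H3K79 methyltransferase, had 2.64 and 2.29 TPM. All 6 listed Dot1l partners were at 1 TPM or more in both libraries, from Aff4, first by the mean, at 18.7 and 9.95 TPM to Mllt6 at 1.28 and 1.16 TPM, and in replicate 2 Mllt10 was above Aff4 at 12.2 TPM. The remaining SET domain proteins were Setd3, an actin histidine methyltransferase (15.4 and 17.1 TPM), Setd5 (11.9 and 14.1 TPM), Setd6, known in human cells for methylating the NF-kappaB subunit RELA (8.05 and 11.4 TPM), Kmt2e (5.07 and 4.98 TPM) and Setd4 (1.41 and 0.75 TPM). The 13 listed lysine methyltransferases outside the name pattern ran from Ezh2, the H3K27 methyltransferase of Polycomb repressive complex 2, at 24.1 and 34.9 TPM to Smyd1, a muscle gene with no count in either library, and 10 of them were at 1 TPM or more in both.

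The arginine methyltransferases spanned the whole range. Prmt1, the main source of asymmetric dimethylarginine in mammalian cells, had 31.1 and 22.4 TPM, and Prmt5, the main source of the symmetric form, 13.5 and 13.5 TPM. Prmt7, which makes monomethylarginine, had 13.0 and 10.9 TPM and Prmt3, whose known substrate is a ribosomal protein, 11.1 and 12.8 TPM. Lower were Prmt9 at 4.55 and 5.43 TPM, Carm1, the H3R17 methyltransferase, at 3.34 and 5.32 TPM and Prmt6, the H3R2 methyltransferase, at 2.24 and 3.54 TPM. Prmt2 had 0.08 and 0.20 TPM from 20 and 40 counts. Prmt8, a membrane-bound paralogue of Prmt1 known from brain, had no count in either library, which allows up to 3 counts, or 0.0606 CPM (counts scaled by library total) in replicate 1 and 0.0678 in replicate 2. Intervals and floors here cover counting error only. The 4 listed partners of arginine methyltransferases were all at 1 TPM or more in both libraries, from Clns1a, a substrate adaptor of Prmt5, at 30.01 and 38.04 TPM to Coprs at 2.42 and 1.85 TPM. Of the supply of S-adenosylmethionine, Mat2a, the catalytic subunit of the synthetase, had 32.04 and 43.11 TPM, and Ahcy, which clears the product of methyl transfer, 22.3 and 27.2 TPM.

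Prmt8 is shown with its promoter because the gene had no count while the promoter holds many CpG dinucleotides. The sequence is from RefSeq on GRCm38.p6, chr6:127769106-127769405 on the minus strand, and runs 5′ to 3′ from 250 bases before to 50 bases after the annotated start, with each CG in capitals.
Prmt8: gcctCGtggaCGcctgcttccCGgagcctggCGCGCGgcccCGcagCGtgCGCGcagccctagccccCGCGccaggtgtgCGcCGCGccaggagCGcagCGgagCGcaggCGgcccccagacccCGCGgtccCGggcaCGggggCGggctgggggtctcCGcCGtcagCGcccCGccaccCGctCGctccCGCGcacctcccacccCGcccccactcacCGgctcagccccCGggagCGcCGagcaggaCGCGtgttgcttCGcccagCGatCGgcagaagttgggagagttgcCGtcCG
It holds 44 CG in 300 bases, counted as the letters CG, which read the same on both strands. A RefSeq promoter was found for 39 of the 51 genes, with the promoter of most CG taken for a gene that has several. Their median was 28 CG, against 15 over 16379 protein-coding genes and 23 over those at 1 TPM or more in both libraries. At least 10 CG were found in 38 of the 39, in 61.7% of all protein-coding genes with a promoter in the table and in 89.6% of those at 1 TPM or more in both libraries. The exception was Setd5, with 1 CG. Its window lies at an internal start, 102 nucleotides from that of its leading transcript Setd5-202 and 27570 from the upstream start of Setd5-201 and Setd5-209, for which no window was used.

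By gene TPM the demethylases were led by Kdm5a, an H3K4 demethylase, at 11.9 and 15.3 TPM. Transcripts annotated as not coding held 61.35% and 56.22% of that TPM, but 14.3% and 10.6% of the counts of the gene. The main transcript of Kdm5a, which was not in the annotation, had 4.59 and 6.69 TPM. Kdm1a (LSD1), the flavin-dependent H3K4 demethylase that works with the CoREST proteins and with Gfi1, had 11.8 and 12.6 TPM, and its paralogue Kdm1b had 2.45 and 2.59 TPM. The log2 ratio of Kdm1a to Kdm1b was 2.27 ± 0.02 (SD, n = 2) by gene TPM and 1.49 and 1.75 by counts. Over transcripts with a long complete coding sequence it was 2.56 and 2.70, so its size depended on the scale. Of 11 listed subunits and partners of Kdm1a 9 were at 1 TPM or more in both libraries, from Hdac2 at 35.6 and 42.9 TPM to Gfi1b, a factor of red cell and platelet formation, at 0.37 and 0.47 TPM, while its paralogue Gfi1, needed for neutrophil formation, had 12.9 and 13.5 TPM. Kdm5c, on the X chromosome, had 9.27 and 7.97 TPM, and Kdm5d, its Y-linked copy, 5.71 and 4.90 TPM. The log2 ratio of Kdm5c to Kdm5d was 0.70 in both libraries by gene TPM, 1.00 and 0.66 by counts, and 2.21 and 1.39 over transcripts with a long complete coding sequence. Kdm5c was the higher on each of these scales, and the size of the difference was not settled. Kdm5b had 2.94 and 3.96 TPM.

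The X-linked H3K27 demethylase gene Kdm6a had 4.80 and 7.90 TPM, and its Y-linked copy Uty, outside the name pattern, 5.69 and 7.90 TPM. Kdm6b (JMJD3), the other H3K27 demethylase and a gene known to be induced in activated macrophages, had 0.55 and 0.23 TPM from 316 and 169 counts. Kdm6a was the higher of the pair in both libraries, at a log2 ratio of 4.11 ± 1.40 (SD, n = 2). Of the H3K9 demethylases, Kdm3b had 5.97 and 7.36 TPM and Kdm3a 3.07 and 4.19 TPM. The Kdm4 enzymes, which act on H3K9 and H3K36, ran from Kdm4a at 4.56 and 4.68 TPM and Kdm4c at 3.48 and 4.93 TPM to Kdm4b at 1.12 and 2.09 TPM and Kdm4d at 0.02 and 0.19 TPM. Kdm4d rested on 6 and 40 counts. Of the 45 genes at 1 TPM or more in both libraries, Kdm4b had the widest interval. The deposited credibility interval of its TPM ran from 1.11 to 5.70 in replicate 1 and from 1.95 to 14.2 in replicate 2. Kdm7a, a demethylase of H3K9 and H3K27, had 2.15 and 2.35 TPM, and Kdm8 had 1.08 and 1.70 TPM. Of the 9 listed demethylases and JmjC proteins outside the pattern 8 were at 1 TPM or more in both libraries, from Jmjd1c, first by the mean, at 11.2 and 15.7 TPM to Hr, the hairless gene of skin, at 0 counts. In replicate 1 Riox2 was above Jmjd1c, at 11.7 TPM.

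Kdm2b and Kdm2a, H3K36 demethylases that also bind unmethylated CpG through a CXXC zinc finger, had 11.5 and 12.8 TPM and 8.91 and 14.4 TPM. Over transcripts with a long complete coding sequence Kdm2a was the higher in both libraries, at a log2 ratio of Kdm2b to Kdm2a of −0.78 and −1.30. Kdm2b is known in a long form and in a short form that lacks the JmjC domain, and the short form led here. The transcript Kdm2b-201, with a coding sequence of 2328 nucleotides, held 50.8% and 59.8% of the TPM of the gene, and Kdm2b-203, with 3909, held 17.9% and 8.04%. By counts the shares of Kdm2b-201 were 57.4% and 68.4%. These transcripts start from separate promoters, which are printed here (RefSeq, GRCm38.p6, 5′ to 3′, 250 bases before to 50 after the RefSeq start, each CG in capitals). The promoter of Kdm2b-203 is chr5:122988458-122988757 and that of Kdm2b-201 chr5:122900301-122900600, both on the minus strand. Another transcript of the long form, Kdm2b-204, held 4.17% and 4.48% of the TPM and has a further promoter with 28 CG, which is not printed.
Kdm2b-203: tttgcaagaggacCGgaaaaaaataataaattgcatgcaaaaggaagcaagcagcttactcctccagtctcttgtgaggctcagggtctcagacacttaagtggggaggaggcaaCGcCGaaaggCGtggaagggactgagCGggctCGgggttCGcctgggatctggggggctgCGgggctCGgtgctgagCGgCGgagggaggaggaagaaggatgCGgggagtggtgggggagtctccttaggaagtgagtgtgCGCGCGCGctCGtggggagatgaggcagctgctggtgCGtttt
Kdm2b-201: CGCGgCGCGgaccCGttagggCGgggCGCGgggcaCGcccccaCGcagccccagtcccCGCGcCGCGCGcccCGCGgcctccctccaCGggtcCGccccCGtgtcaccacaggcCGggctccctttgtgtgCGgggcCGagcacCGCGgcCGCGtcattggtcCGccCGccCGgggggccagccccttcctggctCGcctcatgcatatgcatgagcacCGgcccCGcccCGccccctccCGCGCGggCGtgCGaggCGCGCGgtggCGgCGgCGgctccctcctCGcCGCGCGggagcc
The first holds 18 CG and 59.7% G and C, the second 49 CG and 81.7%. The annotated start of Kdm2b-203 is at 122988533 and that of Kdm2b-201 at 122900355, each within its printed window. No transcript start was measured, so which promoter was in use is known only from the assignment of reads to transcripts.

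Kdm4c shows how far that assignment can move between libraries. In replicate 1 99.9% of its TPM was given to Kdm4c-202, and in replicate 2 100% to Kdm4c-201. Both transcripts have the same coding length of 3162 nucleotides and differ in the annotated start. The credibility interval of Kdm4c-201 in replicate 1 ran from 0.07 to 2.51 TPM against an estimate of 0, so that library did not settle the split. Their promoters are chr4:74242247-74242546 for Kdm4c-202 and chr4:74251629-74251928 for Kdm4c-201, both on the plus strand and from the same source, with each CG in capitals.
Kdm4c-202: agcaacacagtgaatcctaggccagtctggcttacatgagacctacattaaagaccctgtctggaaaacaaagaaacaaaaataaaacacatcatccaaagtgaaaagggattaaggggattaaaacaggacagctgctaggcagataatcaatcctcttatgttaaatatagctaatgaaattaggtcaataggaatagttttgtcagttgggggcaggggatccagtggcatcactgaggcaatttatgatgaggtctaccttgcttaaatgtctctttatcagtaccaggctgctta
Kdm4c-201: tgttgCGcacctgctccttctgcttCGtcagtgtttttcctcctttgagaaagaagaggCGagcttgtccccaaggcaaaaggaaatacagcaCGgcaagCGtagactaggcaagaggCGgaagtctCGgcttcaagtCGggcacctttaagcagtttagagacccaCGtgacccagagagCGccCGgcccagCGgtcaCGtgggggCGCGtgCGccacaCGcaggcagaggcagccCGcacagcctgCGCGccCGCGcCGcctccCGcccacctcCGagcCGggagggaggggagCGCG
The window of Kdm4c-202 holds 0 CG and that of Kdm4c-201 holds 28. The RefSeq start lies 0 nucleotides from the annotated start of Kdm4c-202 and 57 from that of Kdm4c-201.

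Summed by mark, methyltransferases and demethylases stood in different proportions. For H3K4 the 7 methyltransferases summed to 22.9 and 24.9 TPM and the 4 Kdm5 demethylases to 29.9 and 32.1 TPM, a log2 ratio of −0.38 ± 0.01 (SD, n = 2), and this was the only mark of the 4 in which demethylases were the higher. For H3K9, with Setdb1 and Setdb2 counted, the sums were 70.0 and 80.5 TPM against 18.2 and 23.4 TPM, a log2 ratio of 1.86 ± 0.11 (SD, n = 2). For H3K36 they were 50.5 and 66.8 TPM against 29.6 and 39.1 TPM, with a log2 ratio of 0.77 in both libraries, and for H3K27 (Ezh1 and Ezh2 against Kdm6a and Kdm6b) 27.6 and 38.1 TPM against 5.35 and 8.13 TPM, 2.30 ± 0.10 (SD, n = 2). Over transcripts with a long complete coding sequence, the log2 ratio was 1.16 and 1.12 for H3K9, 1.22 and 1.30 for H3K36 and 2.36 and 2.14 for H3K27. The H3K4 ratio could not be computed there because the main transcript of Kdm5a was not matched to the annotation. By gene TPM the H3K4 sum includes transcripts of Kdm5a annotated as not coding, which held 61.35% and 56.22% of its TPM. The Kdm4 genes enter both the H3K9 and the H3K36 sums, and Kdm1a, Kdm1b and Kdm7a enter none. Kdm7a, a demethylase of H3K9 and H3K27, had 2.15 and 2.35 TPM. Methyltransferases outside the name pattern were counted for H3K9 and H3K27, but no demethylase outside it was counted for any mark. The ratios are therefore those of the genes summed, not of all enzymes of a mark.

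**Figure D2:**
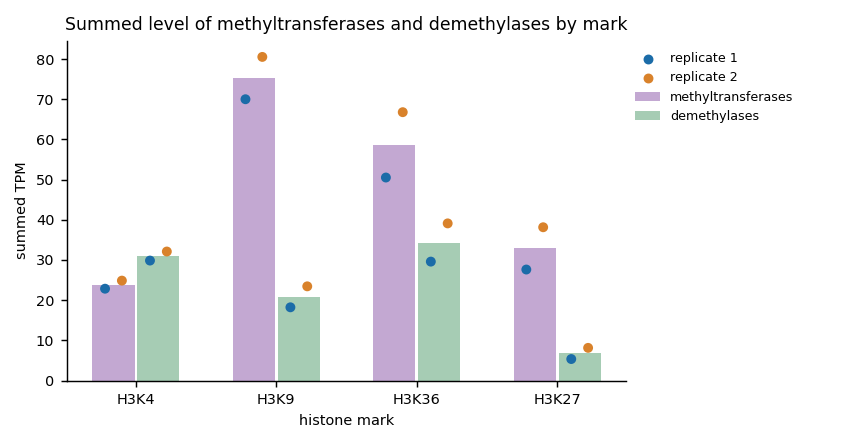
Summed TPM of methyltransferases and demethylases for each of 4 histone marks, with bars for the mean of the 2 libraries and points for each library. The demethylase bar is the higher for H3K4 and the lower for H3K9, H3K36 and H3K27.

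Over whole classes the median methyltransferase had 7.56 and 7.84 TPM and the median demethylase 4.02 and 4.79 TPM, for 33 and 18 genes. The difference of medians on the log2(TPM + 1) scale was 0.69 ± 0.12 (SD, n = 2), and the methyltransferase median was the higher in both libraries. The median arginine methyltransferase had 4.55 and 5.43 TPM and the median lysine methyltransferase 7.68 and 8.02 TPM, a difference of −0.57 ± 0.11 (SD, n = 2) on the same scale. That difference rests on 1 gene: over the genes at 0.1 TPM or more in either library, which leaves out Prmt8 alone, it was −0.06.

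The TPM of these genes was spread over many transcripts. The files hold 356 transcripts of the 51 genes, with a median of 6 per gene among those at 1 TPM or more in both libraries, against 4 over all protein-coding genes at that level. Of the 50 genes with counts, the leading transcript, that of largest share in the gene's TPM averaged over the libraries, was annotated as protein-coding in 47. In 39 genes it carried a complete coding sequence of at least 90% of the longest of the gene, in 2 a shorter complete one (Kdm2b and Nsd3) and in 6 an incomplete one (Kmt2d, Ehmt1, Nsd2, Kmt5c, Suv39h2 and Kdm4d). It was a processed transcript without a coding sequence in Setd6, and in Prmt1 and Kdm5a it was not in the M21 annotation. At 1 TPM or more in both libraries, 3 of 45 genes (6.67%) led with a transcript not annotated as protein-coding, against a background of 8.2%, so the genes were near the rate of all genes in this respect. The leading transcript differed between the libraries in 7 of the 45 (15.6%), against a background of 16.5%, and in 8 of the 50: Kmt5a, Nsd2, Setd6, Kmt5b, Kmt2e, Kdm4a, Kdm4c and Setd4. In 3 of the 8 both leading transcripts have the same coding length.

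In 4 of the 6 genes led by an incomplete transcript (Kmt2d, Ehmt1, Nsd2 and Kmt5c), that transcript took under 12% of the counts in both libraries. In Suv39h2 it took 60.1% and 73.9%, and in Kdm4d all. In Kmt2d the transcript Kmt2d-204, of 856 nucleotides, held 71.4% and 71.9% of the TPM but 7.93% and 7.75% of the counts, and Kmt2d-201, with the full coding sequence of 16764 nucleotides, held 88.9% and 92.2% of the counts. Ehmt1-214 held 36.5% and 45.9% of the TPM of Ehmt1 and 8.32% and 10.2% of its counts. In Nsd3, transcripts with a shorter complete coding sequence held 86.5% and 73.0% of the TPM and full-length ones 9.05% and 12.9%. By counts the shorter ones held 75.4% and 59.3% and the full-length ones 22.7% and 32.6%. A short form of NSD3 that lacks the SET domain is known in human cells. In Kdm4a the share of Kdm4a-204 was 85.9% in replicate 1 and 3.65% in replicate 2, and that of Kdm4a-202 was 0% and 79.2%, with the same coding length of 3192 nucleotides. Over 43 genes at 1 TPM or more in both libraries, the median share of TPM in transcripts with a long complete coding sequence was 64.2% and 69.1%, against 93.1% and 92.5% over all protein-coding genes at that level. Prmt1 and Kdm5a are left out of that count because their leading transcripts were not matched. The share in any protein-coding transcript had a median of 85.5% over the 45 genes, against 97.8% over all. Here Prmt1 and Kdm5a were kept, and transcripts not in the annotation counted as not protein-coding. Neither comparison was matched for the number of transcripts per gene.

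**Figure D3:**
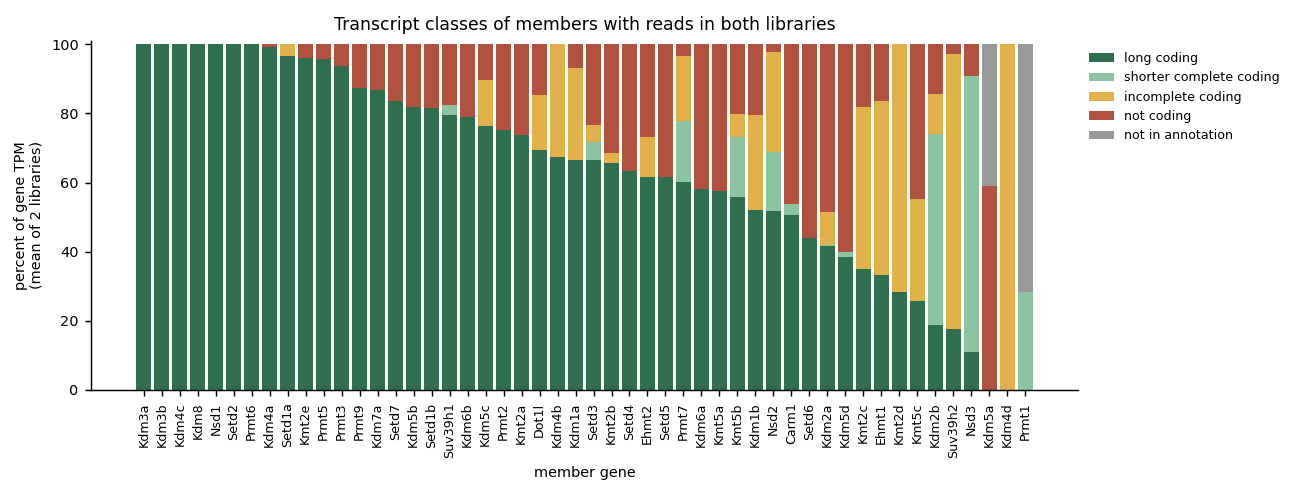
The share of the TPM of each gene held by 5 classes of transcript, as the mean of the 2 libraries, for the 50 genes with counts, ordered by the share of long coding transcripts. The bars for Prmt1 and Kdm5a hold grey parts, since their leading transcripts were not in the annotation used.

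The difference between the 2 libraries was taken as the log2 ratio of CPM, replicate 2 minus replicate 1, for genes at a mean of 10 CPM or more. There were 44 such genes among the 51, and 7 were too low. Past an absolute ratio of 0.5 there were 3 (6.82%), against a background of 9.57% of all protein-coding genes at that level, and none was past 1. All 3 were lower in replicate 2. Dot1l had 2192 and 1149 counts, with a log2 ratio of −0.81. Prmt1 had 3884 and 2064 counts and a log2 ratio of −0.80, and Kmt2d 4528 and 2603 counts and −0.68. The median ratio over the 44 genes was −0.03, against 0.00 over all genes at that level, and the median absolute ratio was 0.19 against 0.18. With 1 library against 1, these values describe the libraries, and a fold threshold stands in for a test.

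Genes rich in G and C tended to be lower in replicate 2. Over 42 of the 44 genes the ratio correlated with the GC content of the leading transcript at Pearson's r of −0.49 and Spearman's rho of −0.49, across genes of the same 2 libraries. Over 8159 protein-coding genes the values were −0.35 and −0.42. The 10 genes of lowest GC content (39.6% to 45.5%) had a median ratio of 0.18 with 8 of 10 above 0, and the 10 of highest (53.6% to 61.5%) a median of −0.20 with 8 of 10 below 0. With the trend of all genes removed, Dot1l was at −0.65 and Kmt2d at −0.56, and they were the 2 genes still past 0.5. Prmt1 had no GC value, as its leading transcript was not in the annotation. The part of fragment length in these differences was not tested.

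**Figure D4:**
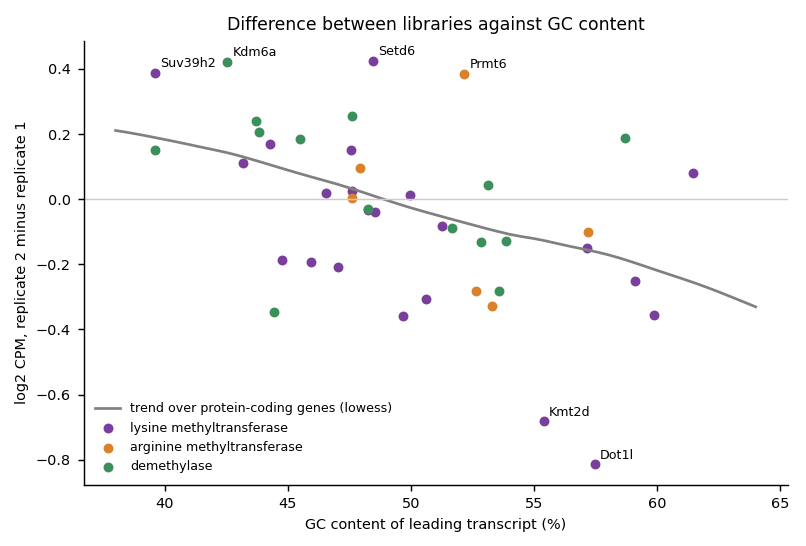
The log2 CPM ratio between libraries (replicate 2 minus replicate 1) against the GC content of the leading transcript for 42 genes, coloured by class, with the lowess trend over all protein-coding genes. Dot1l at −0.81 and Kmt2d at −0.68 lie far below the trend line, and the other points lie within 0.5 of 0.

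Counts and TPM did not always move together. By deposited TPM 37 of the 51 genes were higher in replicate 2. With TPM rescaled so that nuclear protein-coding genes sum to the same total in both libraries there were 22, and by scaled CPM 24. Kdm2a had 8.91 and 14.4 TPM while its counts were 6133 and 5543, and its effective length, a mean over its transcripts weighted by their share, was 4774 and 3449 nucleotides. Its full-length transcript Kdm2a-201 had 4.21 and 4.2 TPM. Kdm5d was the opposite case, with 2909 and 3099 counts, 5.71 and 4.90 TPM and an effective length of 3537 and 5659 nucleotides. Carm1 had 1269 and 1091 counts and 3.34 and 5.32 TPM.

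**Figure D5:**
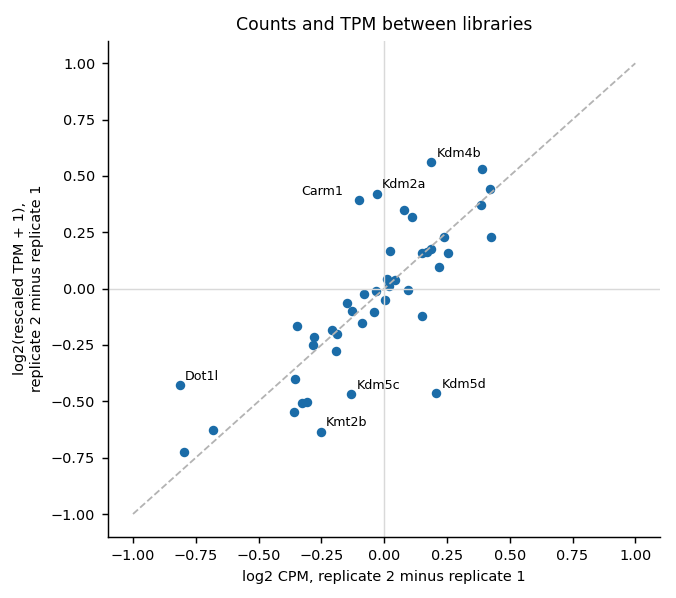
The difference between libraries by rescaled TPM, as log2(rescaled TPM + 1), against that by CPM, as log2 CPM, replicate 2 minus replicate 1, for the 44 genes at a mean of 10 CPM or more. Most points lie near the dashed line of equal change, and Kdm2a, Carm1, Kdm4b, Kdm5c, Kdm5d, Kmt2b and Dot1l lie off it by more than 0.3.

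Few of the values depend on reads shared with other genes. In 48 of the 51 genes the counts were whole and their deposited posterior SD was 0 in both libraries, and the exceptions were Setd3, Kdm2b and Setd1a. Some genes share exon sequence with a neighbour on the other strand, and the sources used here do not say whether counting used strand. The counts of the 6 neighbours named next were whole in both libraries, so no count was split within these pairs. Whether each read of an overlap was given to the right gene was not tested. With protein-coding genes counted in the files, the 6 largest exonic overlaps were 1025 nucleotides for Carm1 and Yipf2, 972 for Kmt2e and Srpk2, 627 for Kdm2b and Rnf34, 505 for Kdm1b and Dek, which had 108 and 139 TPM, 357 for Suv39h2 and Dclre1c, and 251 for Kdm5a and Ccdc77. Setd1a shares 3523 of its 6795 exonic nucleotides with the M21 gene Gm49388 on the same strand, which has no value here, so its reads cannot be told from those of Setd1a.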

How the data were processed

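Total RNA of mouse GMP was sequenced in 2 libraries. Per the file headers, the deposited files hold each gene's expected count, TPM, FPKM, percent shares of each gene in its transcripts, and credibility bounds of TPM, treated as a score. Deposited effective lengths are in nucleotides. The deposited read-me text names mm10 and annotation M4, but the sources used here name no aligner or quantifier. Names, coordinates and transcript classes come from GENCODE M21 (mm10), by ID without version: 42462 genes by gene ID, 144 through their transcript IDs (Prmt1 among them), and 740 unmatched.

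The members, lists and rule for named genes were chosen with earlier results of these data known. By that rule every member is accounted for, with values for those high, low, near 1 TPM or differing between libraries, and the first and last gene of each list, except that 1 item of the S-adenosylmethionine list is not reported here.

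Ratios used edgeR 4.0.16 (R 4.3.3) with TMM factors 0.985 and 1.02 on expected counts rounded to whole numbers, a prior count of 2 and a minimum mean of 10 CPM. The pseudocount for TPM was 1. The GC trend was a lowess fit (statsmodels 0.14.6, span 0.3). Ratios were checked on simulated data. DESeq2 1.42.0 size factors, other scales, filters, thresholds and each replicate alone were alternatives. Depth was 49473848 and 44260902 counts, so 3 counts are 0.0606 and 0.0678 CPM.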

Additional observations from a re-analysis of the deposited data

How the results depend on the processing

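Of 58 alternatives run over 8 results, 41 stayed within the spread or within 1.5 times the count, 16 moved further and 1 changed sign. At 5 TPM or more in both libraries there were 25 genes in place of 45 at 1 TPM. The median methyltransferase minus demethylase difference of 0.69 was 0.55 with means, 0.53 with Setdb1 and Setdb2 added and 0.32 over transcripts with a long complete coding sequence. The arginine minus lysine difference of −0.57 was −0.063 over genes at 0.1 TPM or more in either library and −0.20 over long coding transcripts. Settings that add Setdb1 and Setdb2, use long coding transcripts or remove the GC trend were chosen after seeing the data. Past 0.5 between libraries there were 3 genes by CPM, 8 by rescaled TPM, 6 without a filter on low counts and 0 at a threshold of 1. The median ratio of −0.03 was 0.012 with library totals only, a scaling that moves all genes alike. Among genes at 5 TPM or more the leading transcript was protein-coding in 22 and differed in 4, as fewer genes are counted. The median protein-coding share of 85.5% was 96.5% by counts, 82.4% by posterior mean and 83.5% at 5 TPM or more, and 88.5% to 89.9% with either replicate left out. Where no cause is given, the cause was not tested. No paired analysis was possible because there is 1 group. With 2 libraries an SD is imprecise, and genes under about 3 counts could not be told from 0.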
